A study of Homo sapiens with 12 samples.

Results

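H7, a human embryonic stem cell line, was led towards cardiomyocytes in culture, and the change from day 3 to day 7 in its wild-type cells is described here. The comparison rests on 4 of the 12 RNA-seq libraries of the series, the 2 wild-type libraries of day 3 and the 2 of day 7, which were chosen by their labels alone. The cells of day 3 are labelled as cardiac mesoderm and those of day 7 as cardiomyocytes, both derived from H7 and both wild type. The labels name no agent, dose or medium for the differentiation. The other 8 libraries are 2 of the wild type at day 15 (also labelled cardiomyocytes) and 2 each of day 3, day 7 and day 15 labelled E2A-/-, here called libraries labelled knockout. They entered the shared estimate of spread, and the libraries labelled knockout of days 3 and 7 are compared in the last paragraph. All groups come from 1 line of cells. The labels do not say whether replicates 1 and 2 were separate cultures, so the p-values speak only to how far these samples scatter, and that scatter could be technical.

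The heart forms from mesoderm that leaves the primitive streak, where NODAL, WNT and FGF signals keep factors such as EOMES and MIXL1 active. As this mesoderm moves away, streak genes are shut off, canonical WNT signalling is lowered by inhibitors, and BMP and FGF signals help to establish a network of GATA, T-box, NK and MEF2 factors. That network, with the coactivator MYOCD, drives genes of the contractile apparatus, and the first heart muscle cells carry fetal forms of its proteins.

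Values are FPKM, a fragment count scaled by transcript length and library size, for 17096 genes, each above 0 in all 12 libraries. Changes are day 7 minus day 3 of log2(FPKM + 1), a scale that understates low genes, with the standard error (SE) of limma, and n = 2 libraries for each day. A gene is said to have risen or fallen where its limma p-value, adjusted by Benjamini and Hochberg over the 16295 genes tested, was under 0.05. By this rule 3442 genes rose (21.1% of those tested) and 3686 fell (22.6%), 43.7% in all, and the median change over all genes tested was -0.03. With a change of at least 2-fold added to the rule, 1671 genes were higher (10.3%) and 1270 lower (7.79%). The 2 days did not overlap for 12496 genes (76.7%), so a lack of overlap is common here. It held for each gene said below to have risen or fallen and given with its values. In all, 67 genes were below 1 FPKM in both day 3 libraries and at 10 FPKM or more in both of day 7, and 14 genes went the other way. No listed gene is at 0 in any of the 12 libraries, so a switch from or to 0 could not enter these counts or the largest changes given below. The FPKM of these 4 libraries summed to between 632305 and 734958, and replicates correlated across genes at r = 0.9887 at day 3 and 0.9899 at day 7. Mitochondrially encoded transcripts took 16.9% and 15.7% of the summed FPKM at day 3 and 8.55% and 8.14% at day 7. The edited gene of the series, TCF3 (formerly E2A), stood at 179.5 and 149 FPKM at day 3 and 135 and 138 FPKM at day 7, a change of -0.26 that did not pass (SE 0.19, adjusted p = 0.314).

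The labelled cell types were read against their markers first. Of 8 markers of cardiac mesoderm, all listed, 4 fell and 4 rose, and their summed FPKM went from 1480.3 and 1478 at day 3 to 535 and 534 at day 7. APLNR and MIXL1, which both fell, held most of the day 3 sum. The 7 listed of 8 cardiomyocyte markers all rose, and their sum went from 7.09 and 8.20 to 6076 and 6073 FPKM. PLN, the eighth, was not analysed here. Markers of other cells moved over the same days. The 4 listed endothelial markers (of 5) all rose, from a summed 2.30 and 0.936 to 42.5 and 34.5 FPKM, and the 4 smooth muscle markers all rose, from 42.6 and 40.6 to 959 and 989.6 FPKM. Of 3 listed endoderm markers (of 5) 2 rose and 1 fell, with a sum of 127 and 130.4 FPKM at day 3 and 103 and 118 FPKM at day 7. Of 3 listed neural markers (of 5) 1 rose and 1 fell, with a sum of 107 and 104 and then 162 and 159 FPKM. The 2 listed epicardial markers (of 4) summed to under 1 FPKM in each of the 4 libraries, and none of the 5 blood markers was analysed here. The 3 listed pluripotency markers (of 4) all fell and still summed to 754 and 728 FPKM at day 7, against 1912 and 1875 at day 3. Most of the day 7 sum was LIN28A, which is given below with POU5F1 and SOX2. In these bulk samples fewer cells of a type and less RNA per cell cannot be told apart, and the part of other cell types in the results that follow was not tested.

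Most genes of the primitive streak fell. Of 9 tested, 7 fell and 1 rose, with a median change of -3.65, against 22.6% lower among all genes. EOMES (GRCh38 chromosome 3, 27715949 to 27722711, minus strand), the T-box factor that opens the mesendoderm programme, stood at 188 and 182 FPKM at day 3 and 2.31 and 2.27 FPKM at day 7. MIXL1, a homeobox factor of the same stage, stood at 385 and 384 FPKM at day 3 and 6.48 and 8.04 FPKM at day 7. The loss was 5.82 for EOMES (SE 0.18, adjusted p = 4.79e-09) and 5.55 for MIXL1 (SE 0.22, adjusted p = 2.22e-08). LHX1, a LIM homeobox factor of the organizer and anterior mesendoderm, fell by 5.83, from 301 and 283 to 2.88 and 5.87 FPKM. GSC, a homeobox repressor of the organizer, went from 23.6 and 26.1 FPKM to 0.150 and 0.381 FPKM. The WNT-responsive factor SP5 fell by 3.65 and TBX6, a T-box factor of paraxial mesoderm, by 2.50. MESP1, which marks the earliest cardiac mesoderm, was already low at day 3 (9.23 and 11.4 FPKM) and stood at 0.817 and 0.831 FPKM at day 7. EVX1, a homeobox gene of the posterior streak, was the 1 member that rose, by 0.79 (SE 0.18, adjusted p = 0.00544), and that call ended without day 7 replicate 2 (0.65, adjusted p = 0.0583).

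Genes of the pluripotent state fell with those of the streak, but by unequal amounts. Of 14 tested 12 fell and none rose, with a median of -1.99. POU5F1, the core pluripotency factor, was still at 114 and 111 FPKM at day 7, after 1041 and 1034 FPKM at day 3. The long noncoding RNA ESRG, typical of primate stem cells, went from 64.8 and 61.5 FPKM to 0.338 and 0.291 FPKM, a fall of 5.61 (SE 0.15, adjusted p = 1.97e-09). The zinc finger gene ZIC2 fell by 3.28. DNMT3B, the de novo DNA methyltransferase of stem cells, fell by 1.99, and SOX2 fell by 1.04 to 21.0 and 21.2 FPKM. LIN28A, an RNA-binding protein that blocks let-7 maturation, stood at 824 and 799 FPKM at day 3 and 619 and 596 FPKM at day 7. Both days were high, and it fell by 0.42 (SE 0.10, adjusted p = 0.00487). Its paralog LIN28B fell by 0.69 from 22.0 and 23.1 FPKM.

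**Figure D1:**
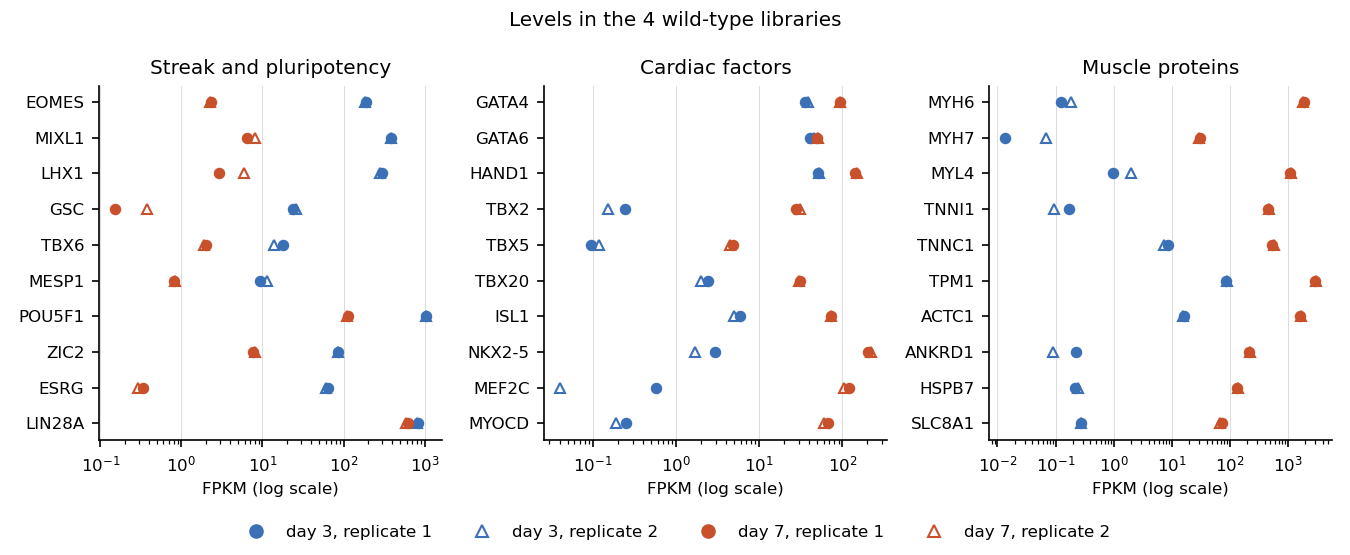
FPKM on a log axis in each of the 4 wild-type libraries for 10 genes of the streak and pluripotency, 10 cardiac transcription factors and 10 muscle genes, with blue marks for day 3, red for day 7, filled circles for replicate 1 and open triangles for replicate 2. The days lie apart for every gene shown, with the least distance for GATA6, which did not pass the test, and LIN28A.

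More NODAL pathway genes fell than rose. NODAL acts with the coreceptor TDGF1 through activin receptors and SMAD2, and is held in check by its own targets LEFTY2 and CER1. Of 17 tested genes 8 fell and 5 rose (median -0.39), and the rises numbered 3 without day 3 replicate 2 or without day 7 replicate 1. NODAL itself stood at 17.0 and 18.7 FPKM at day 3 and 9.72 and 7.83 FPKM at day 7, a fall of 0.95 (SE 0.22, adjusted p = 0.00471). TDGF1 fell by 3.10, from 260.4 and 266 FPKM to 26.1 and 34.2 FPKM, while the related coreceptor CFC1 rose by 1.75, from 10.2 and 10.5 to 36.0 and 38.3 FPKM. CER1, a secreted inhibitor of NODAL, BMP and WNT ligands, went from 297 ± 13.7 to 1.63 ± 0.526 FPKM (SD, n = 2), the largest fall of all genes tested (-6.84, SE 0.27, adjusted p = 2.17e-08). The secreted inhibitors LEFTY2 and FST fell by 2.70 and 0.96. SMAD7, an intracellular inhibitor shared with the BMP branch, rose by 1.77. The signal transducer SMAD2 rose by 1.05, to 114 and 109.9 FPKM.

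Within the WNT pathway, ligands, inhibitors and targets each split. Of 48 tested genes 17 rose and 18 fell (median 0.21). The canonical ligands WNT3 and WNT3A fell by 2.37 and 3.32, and WNT3A stood at 0.0280 and 0.256 FPKM at day 7. WNT11, a ligand of the noncanonical branch that acts in heart development, stood at 0.282 and 1.32 FPKM at day 3 and 34.4 and 43.1 FPKM at day 7. Its rise was 4.52 (SE 0.35, adjusted p = 3.28e-06), and WNT5B and WNT5A, of the same branch, rose by 2.99 and 0.80. The inhibitors went both ways. DKK1, which blocks the LRP coreceptors, stood at 388 and 447 FPKM at day 3 and 14.9 and 23.7 FPKM at day 7 and fell by 4.40. SFRP2 and SFRP1, decoys that bind WNT ligands, fell by 3.48 and 0.82. TMEM88, a membrane inhibitor that binds Dishevelled in cardiac precursors, rose instead, from 6.12 and 6.29 to 83.8 and 91.7 FPKM, by 3.62 (SE 0.14, adjusted p = 1.93e-08). Of 12 targets and nuclear factors 6 fell and 4 rose. The feedback targets AXIN2, NKD1 and LGR5 fell by 1.85, 1.86 and 1.77. LGR4, a paralog of LGR5 and like it a receptor for R-spondins, rose by 2.31 to 141 and 131 FPKM.

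FGF ligands moved in both directions. All 8 tested ligands passed, 5 lower and 3 higher. FGF17, a ligand of the streak and of midline signalling centres, stood at 186 and 192 FPKM at day 3 and 1.07 and 0.612 FPKM at day 7, the second largest fall among genes at 5 FPKM or more at day 3 (-6.70, SE 0.20, adjusted p = 3.42e-09). FGF8, of the same subfamily, rose by 2.80 to 40.6 and 46.5 FPKM. FGF10, a ligand of second heart field progenitors, rose by 4.14, from 1.04 and 0.849 FPKM to 34.9 and 31.7 FPKM. Among 12 genes of ERK feedback and ETS targets, 5 fell and 1 rose. The feedback inhibitors SPRY4 and IL17RD fell by 2.83 and 2.69 and the ETS factor ETV4 by 1.84. DUSP6, a phosphatase of ERK, rose by 1.11.

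Genes of the BMP pathway mostly rose. Of 29 tested genes 20 rose and 3 fell (median 0.89, against -0.03 over all genes). All 7 tested ligands rose. BMP4, used by embryos to induce mesoderm and cardiac fate, stood at 32.5 and 27.2 FPKM at day 3 and 209 and 211 FPKM at day 7, a rise of 2.78 (SE 0.13, adjusted p = 5.59e-08). BMP5 and BMP7 rose by 1.95 and 0.88. The 7 genes listed as receptors and SMADs were less uniform: 2 rose, 1 fell and 4 did not pass (median 0.11). Antagonists rose beside the ligands, in 7 of 9 cases, and 1 fell. BAMBI, a decoy receptor, stood at 40.0 and 35.1 FPKM at day 3 and 567 and 569.7 FPKM at day 7 (3.89, SE 0.10, adjusted p = 1.67e-09). SMAD6, the inhibitory SMAD of this branch, rose by 3.01, and the secreted antagonist NOG rose by 2.38 from under 1 FPKM to 7.44 and 7.62 FPKM. The targets ID1, ID2 and ID4, inhibitors of E proteins, rose by 1.86, 1.62 and 1.69, and ID1 reached 676 and 739.9 FPKM. The homeobox targets parted: MSX2 rose by 1.94 and MSX1 fell by 1.25.

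The NOTCH and retinoid lists each held rises and falls, where 21.1% of all genes tested rose and 22.6% fell. Of 21 tested NOTCH genes 8 rose and 6 fell. Among the 4 NOTCH receptors none rose, 2 fell and 2 did not pass, with changes from -0.66 to -0.33. The ligand DLL3, which dampens NOTCH in presomitic mesoderm, went from 214 and 230.4 FPKM to 4.88 and 4.54 FPKM, and DLL1 fell by 1.70. JAG1 and JAG2, ligands of the Jagged class, rose by 0.94 and 1.90. The target genes HES1, HES4 and NRARP rose by 1.47, 3.28 and 1.28, while the ligand-choosing glycosyltransferase LFNG fell by 2.23. Of 18 tested retinoid genes 7 rose and 6 fell. CYP26A1, which degrades retinoic acid, stood at 381 and 379.7 FPKM at day 3 and 4.58 and 4.76 FPKM at day 7 (-6.07, SE 0.32, adjusted p = 1.95e-07). Its paralog CYP26C1 rose by 2.69 to 7.66 and 6.71 FPKM. The receptor RARB, itself a retinoic acid target, rose from 0.261 and 0.256 FPKM to 30.5 and 28.1 FPKM (4.59). NR2F2, an orphan receptor of atrial and venous fate, rose by 3.05, to 10.9 and 11.0 FPKM.

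**Figure D2:**
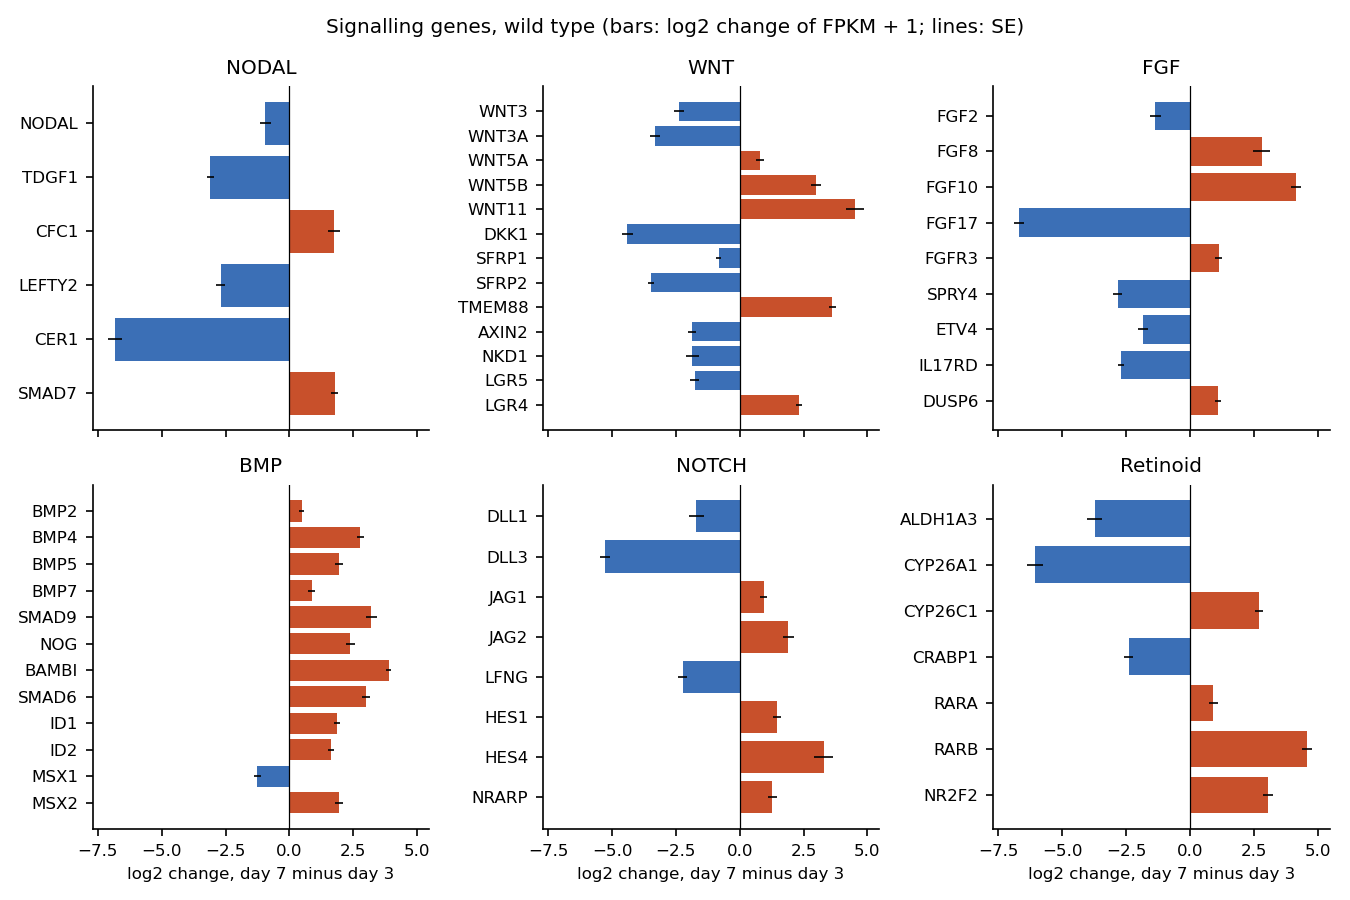
Log2 change of FPKM + 1 from day 3 to day 7 in the wild type for genes of 6 signalling pathways, with red bars for rises, blue bars for falls and lines for the SE of limma (n = 2 libraries a day). The bars are chosen members of each list. Every BMP gene shown other than MSX1 rose, though of all 29 BMP genes tested 20 rose and 3 fell. The NODAL, WNT, FGF, NOTCH and retinoid panels hold bars of both directions.

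Cardiac transcription factors rose from very different starting levels. Of 25 tested 16 rose and 6 fell (median 1.53). GATA4, HAND1 and TBX3 were already on at day 3. GATA4, a zinc finger factor of cardiac mesoderm and endoderm, stood at 35.3 and 38.8 FPKM at day 3 and 94.7 and 94.2 FPKM at day 7 and rose by 1.33. HAND1, a bHLH factor of lateral mesoderm, stood at 51.2 and 52.4 FPKM at day 3 and 142 and 151 FPKM at day 7 (1.48). The related GATA6 did not pass, at 40.9 and 45.2 FPKM at day 3 and 48.9 and 51.1 FPKM at day 7 (0.21, SE 0.15, adjusted p = 0.291). Another set was close to 0 at day 3. MEF2C (GRCh38 chromosome 5, 88717117 to 88904257, minus strand), a MADS-box factor of muscle genes, stood at 0.574 and 0.0399 FPKM at day 3 and 121 and 105 FPKM at day 7. MYOCD, the coactivator that pairs with SRF, stood at 0.253 and 0.189 FPKM at day 3 and 66.6 and 59.5 FPKM at day 7. TBX2, a repressor of chamber genes in the atrioventricular canal, stood at 0.244 and 0.151 FPKM at day 3 and 27.9 and 30.9 FPKM at day 7. These 3 rises were 6.47 (SE 0.24, adjusted p = 1.59e-08), 5.71 (SE 0.20, adjusted p = 7.47e-09) and 4.66 (SE 0.14, adjusted p = 4.38e-09). TBX20 rose by 3.28 and TBX5, a factor of atrial and left ventricular cells, by 2.35. TBX5 reached 4.88 and 4.41 FPKM at day 7, far below TBX3, a T-box repressor of the conduction system, at 60.3 and 61.9 FPKM. The falls were in IRX3 (-1.53), IRX5 (-1.35), FOXC1 (-1.93) and FOXC2 (-1.26), homeobox and forkhead factors that act in many tissues, among others. SMARCD3, the BAF chromatin subunit of heart progenitors, rose by 1.65, and its level relative to the paralog SMARCD1 went from 0.0932 and 0.0995 to 0.450 and 0.487. Of the surface receptors used to sort cardiac mesoderm, PDGFRA rose by 1.20 while the apelin receptor APLNR fell from 734 and 734 to 149 and 150.1 FPKM (-2.29).

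Genes of the contractile apparatus were the 5 largest rises of all genes tested, MYH6, MYL7, TNNT2, MYL4 and TNNI1. Of 10 tested thick filament genes 8 rose and none fell, with a median of 4.03. Their share of the FPKM of nuclear genes went from 0.00357% and 0.00394% at day 3 to 1.07% and 1.05% at day 7. Of 16 thin filament genes 12 rose and 1 fell (median 2.48). Their share went from 0.235% and 0.222% to 1.38% and 1.42%. MYL2, MYL3 and MYBPC3 were not analysed here. The 250 bases before the RefSeq start site (GRCh38.p14, all 6 genes on the minus strand) are shown 5′ to 3′ for 6 genes. They are the largest rises among core genes of the thick filament, thin filament and chamber lists that had a window in the RefSeq table used. This leaves out MYL4, TNNI1 and TNNC1. Capitals mark a core promoter element known as the TATA box (TATAAA), the serum response element bound by SRF (the CArG box) or a motif of GATA factors (AGATAA).
MYH6 at chr14:23408274-23408523: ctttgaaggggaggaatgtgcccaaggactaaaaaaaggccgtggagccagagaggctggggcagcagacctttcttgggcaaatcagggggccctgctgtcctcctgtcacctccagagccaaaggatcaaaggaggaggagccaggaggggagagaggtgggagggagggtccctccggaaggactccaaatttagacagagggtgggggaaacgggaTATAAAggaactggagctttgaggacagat
MYL7 at chr7:44141333-44141582: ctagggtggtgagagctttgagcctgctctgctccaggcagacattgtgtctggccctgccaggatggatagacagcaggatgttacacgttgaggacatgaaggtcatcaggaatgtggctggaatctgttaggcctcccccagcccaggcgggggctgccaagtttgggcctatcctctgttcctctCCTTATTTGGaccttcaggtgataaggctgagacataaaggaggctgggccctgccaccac
TNNT2 at chr1:201377681-201377930: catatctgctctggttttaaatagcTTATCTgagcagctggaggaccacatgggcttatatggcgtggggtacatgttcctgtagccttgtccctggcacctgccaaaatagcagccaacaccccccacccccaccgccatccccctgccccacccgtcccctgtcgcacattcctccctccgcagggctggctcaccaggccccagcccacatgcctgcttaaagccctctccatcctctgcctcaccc
ACTC1 at chr15:34795550-34795799: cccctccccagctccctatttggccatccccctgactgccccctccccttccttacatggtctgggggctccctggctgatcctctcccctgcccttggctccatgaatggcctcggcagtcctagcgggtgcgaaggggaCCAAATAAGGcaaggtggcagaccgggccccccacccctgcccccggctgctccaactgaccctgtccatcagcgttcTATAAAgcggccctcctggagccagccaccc
MB at chr22:35623355-35623604: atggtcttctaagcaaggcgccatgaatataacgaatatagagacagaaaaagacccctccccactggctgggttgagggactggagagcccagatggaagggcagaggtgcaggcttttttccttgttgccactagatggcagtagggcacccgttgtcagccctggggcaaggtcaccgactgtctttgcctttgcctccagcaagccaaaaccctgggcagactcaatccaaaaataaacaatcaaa
NPPA at chr1:11847784-11848033: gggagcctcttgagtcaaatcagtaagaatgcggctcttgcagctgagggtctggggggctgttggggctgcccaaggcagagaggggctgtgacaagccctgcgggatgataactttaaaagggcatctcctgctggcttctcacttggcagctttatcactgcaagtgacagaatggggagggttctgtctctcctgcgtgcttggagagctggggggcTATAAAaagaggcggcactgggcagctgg
The motifs were searched on both strands. A TATA box stood 30 bases before the start site in MYH6, 31 in ACTC1 and 29 in NPPA, and 10.7% of all 35116 RefSeq windows of this length hold one. A CArG box stood 61 bases before the start in MYL7 and 109 bases before it in ACTC1, against 1.16% of all windows. The TNNT2 window holds the 1 GATA motif of the set, against 9.17% of all windows. An E-box (CANNTG, not in capitals) was found in 5 of the 6 windows, MYH6 being the exception, and in 61.8% of all windows. A MEF2 motif was in none of the 6 and in 2.36% of all windows. A match is a run of letters and no measured binding site.

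The genes behind these promoters differ in how low they began. MYH6 (GRCh38 chromosome 14, 23381990 to 23408277, minus strand), the atrial myosin heavy chain, stood at 0.126 and 0.183 FPKM at day 3 and 1921 and 1848 FPKM at day 7. MYL7, the atrial regulatory light chain, stood at 1.56 and 5.13 FPKM at day 3 and 2994 and 3007 FPKM at day 7, so the 2 day 3 libraries differed in a trace of this gene. MYL4, the atrial essential light chain, stood at 0.959 and 1.98 FPKM at day 3 and 1103 and 1159 FPKM at day 7 (8.87, SE 0.21, adjusted p = 9.52e-10). MYH7, the slow myosin of the ventricle, also rose, by 4.91 to 31.1 and 29.3 FPKM. MYH6 was 61.8 and 63.2 times MYH7 at day 7, with the limit that reads of these near-identical neighbours may be split between them. TTN, the elastic spring of the sarcomere, rose by 3.65 to 19.8 and 18.4 FPKM. MYLK3, the kinase of cardiac myosin light chain, rose by 4.27 to 85.3 and 82.2 FPKM. ACTC1, cardiac actin, stood at 16.6 and 15.9 FPKM at day 3 and 1617 and 1670.1 FPKM at day 7 (6.57, SE 0.26, adjusted p = 2.44e-08), with the limit that reads of the actin genes may be shared. TPM1, alpha tropomyosin, was at 87.1 and 88.4 FPKM at day 3 and at 2932 and 3128 FPKM at day 7 (5.09, SE 0.10, adjusted p = 3.49e-10). TNNC1, the calcium sensor of the troponin complex, rose by 5.95 to 536 and 578 FPKM. TNNT1, slow skeletal troponin T, was the thin filament gene that fell. It stood at 246 and 215 FPKM at day 3 and 145 and 146 FPKM at day 7 (-0.66, SE 0.11, adjusted p = 6.36e-04), when TNNT2, the cardiac form, went from 0.533 and 0.483 to 810.2 and 852 FPKM.

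Ratios of related genes within the same library show these shifts. TNNI1, slow skeletal troponin I and the fetal heart form, stood at 0.173 and 0.0938 FPKM at day 3 and 460.4 and 478 FPKM at day 7 (8.70, SE 0.22, adjusted p = 1.56e-09). TNNI3, the adult cardiac form, was already at 37.9 and 40.2 FPKM at day 3 and rose by 0.92 to 71.0 and 78.2 FPKM. The ratio of TNNI1 to TNNI3 was 0.00457 and 0.00233 in the day 3 libraries and 6.48 and 6.11 in those of day 7. TNNT2 over TNNT1 went from 0.00217 and 0.00225 to 5.57 and 5.85. ACTC1 over cytoplasmic actin ACTB went from 0.00586 and 0.00569 to 1.31 and 1.31, with ACTB itself falling by 1.17. RYR2, the cardiac calcium release channel, passed its skeletal paralog RYR1, from a ratio of 0.0635 and 0.0495 to 1.60 and 1.52. Among other pairs, MEF2C over MEF2D went from 0.122 and 0.00805 to 3.90 and 3.51 and GATA4 over GATA6 from 0.862 and 0.859 to 1.94 and 1.84. These ratios carry no test, since with 2 libraries against 2 an exact two-sided permutation test cannot go below p = 0.333.

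**Figure D3:**
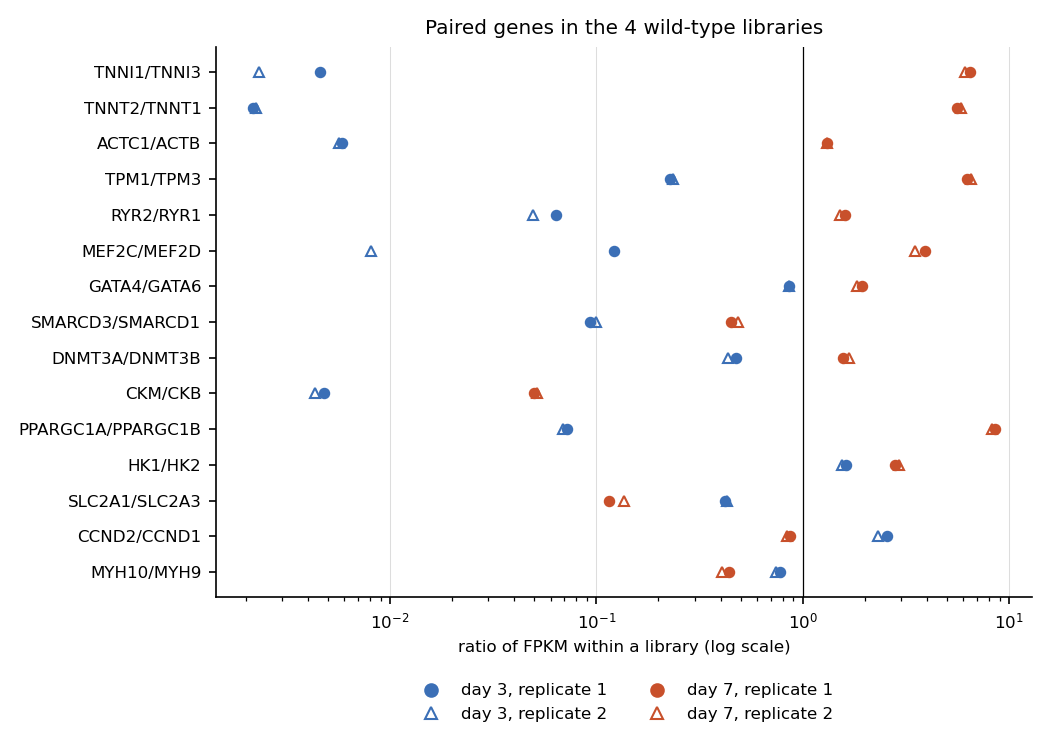
Ratio of the FPKM of 2 related genes within each of the 4 wild-type libraries, on a log axis with a line at 1 and marks for day and replicate. The ratios of TNNI1 to TNNI3, TNNT2 to TNNT1 and ACTC1 to ACTB cross from below 0.01 to above 1.

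Genes of the Z-disc and its links to the membrane rose almost throughout. Of 25 tested 22 rose and 1 fell (median 1.38). ANKRD1, a stretch-responsive ankyrin repeat protein, stood at 0.228 and 0.0923 FPKM at day 3 and 218 and 222 FPKM at day 7 (7.58, SE 0.15, adjusted p = 3.49e-10). HSPB7, a small heat shock protein of heart muscle, stood at 0.215 and 0.240 FPKM at day 3 and 135 and 140.3 FPKM at day 7. ACTN2, the alpha-actinin that anchors actin, stood at 0.675 and 0.0856 FPKM at day 3 and 121 and 120.4 FPKM at day 7, and the rises of the pair were 6.82 and 6.50. POPDC2, a cAMP-binding membrane protein of the conduction system, rose by 6.10 to 79.8 and 89.4 FPKM. LDB3 and XIRP1, further Z-disc and intercalated disc proteins, rose by 5.11 and 5.10. DES, the muscle intermediate filament, rose by 2.31 and reached 12.2 and 14.7 FPKM. SGCB, a sarcoglycan, was the 1 member that fell (-0.79).

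Genes of calcium handling mostly rose, and those of channels and junctions were split. Of 21 tested calcium genes 14 rose and 3 fell (median 0.67). SLC8A1, the sodium-calcium exchanger that clears calcium in the early heart, stood at 0.278 and 0.279 FPKM at day 3 and 73.8 and 67.7 FPKM at day 7 (5.81, SE 0.15, adjusted p = 1.67e-09). JPH2, which tethers the sarcoplasmic reticulum to the surface membrane, rose by 4.46 and HRC, a calcium-binding protein of that reticulum, by 3.01. RYR2 rose by 2.28 to 5.78 and 5.28 FPKM. The calcium pump ATP2A2 was high on both days, at 114 and 114 FPKM at day 3 and 157 and 152 FPKM at day 7 (0.44). The L-type channel genes CACNA1D and CACNA1C rose by 3.16 and 2.54, and their auxiliary subunit CACNA2D1 fell by 2.25. CASQ2 and SLN were not analysed here. Of 21 ion channel and junction genes 9 rose and 7 fell (median 0.08). The pacemaker channel HCN4 stood at 3.96 and 3.47 FPKM at day 3 and 13.2 and 13.6 FPKM at day 7 (1.61, SE 0.16, adjusted p = 2.41e-05). The repolarizing channel KCNH2 rose by 2.40 and KCNIP2, partner of the transient outward channel, by 4.13. GJA1, the main connexin of working myocardium, fell from 547 and 570.2 to 288 and 275 FPKM (-0.98), and the early cardiac connexin GJC1 fell by 0.75.

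Chamber and energy genes of muscle rose, with 10 of 11 past the threshold and none lower (median 2.78). NPPA, the atrial natriuretic peptide, stood at 1.34 and 0.953 FPKM at day 3 and 74.0 and 82.1 FPKM at day 7 (5.21, SE 0.17, adjusted p = 5.14e-09). MB, myoglobin, stood at 0.747 and 0.102 FPKM at day 3 and 56.8 and 62.7 FPKM at day 7 and at 5.76 and 5.49 FPKM at day 15. CKM, muscle creatine kinase, rose by 4.99 and PYGM, muscle glycogen phosphorylase, by 5.07. CKB, the brain-type creatine kinase, remained the higher of the 2 kinases, at 996 and 1061 FPKM against 49.8 and 54.9 FPKM for CKM at day 7. NPPB was not analysed here.

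Genes of smooth muscle, several of which the early heart also expresses, rose. Of 10 tested 9 rose (median 2.18). ACTA2, smooth muscle actin and a fetal heart actin, stood at 3.68 and 2.71 FPKM at day 3 and 554 and 561 FPKM at day 7 (7.07, SE 0.22, adjusted p = 4.79e-09). The actin-binding proteins TAGLN and CNN1 rose by 3.57 and 2.58, and LMOD1 rose from under 1 FPKM to 47.6 and 46.1 FPKM. Of 13 endothelial genes 8 rose and 1 fell (median 1.13). CDH5, the cadherin of endothelial junctions, stood at 0.590 and 0.0896 FPKM at day 3 and 11.1 and 9.93 FPKM at day 7 (3.13, SE 0.20, adjusted p = 8.99e-07). PLVAP, a protein of endothelial fenestrae, went from 0.222 and 0.0387 to 42.8 and 50.6 FPKM, and TIE1 rose by 3.36. The receptor FLT1 fell by 0.98. LMO2 and GATA2, factors shared by blood and endothelium, rose by 2.51 and 3.61. RUNX1, the other blood gene tested and named after its values were seen, fell by 1.65, and the other 12 of 15 were not analysed here.

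More endoderm genes rose than fell, and SOX17 was the 1 tested member that fell. SOX17, the factor of definitive endoderm, stood at 79.0 and 84.0 FPKM at day 3 and 4.82 and 6.44 FPKM at day 7 (-3.65, SE 0.18, adjusted p = 1.17e-07). HHEX, a homeobox factor of anterior endoderm and of cardiac-inducing tissue, rose by 2.12 to 118 and 120.2 FPKM. The apolipoprotein genes APOA1 and APOA2 rose by 4.55 and 2.17, and APOA1 stood at 0.938 and 0.120 FPKM at day 3 and 29.4 and 38.3 FPKM at day 7. In all, 7 of 11 tested rose and 1 fell (median 0.77), against 21.1% and 22.6% of all genes, with 10 further members not analysed here. Of 14 tested neural genes 3 rose and 4 fell (median -0.04), near the shares of all genes (21.1% and 22.6%). No change of this list is read from them, and 2 of the rises and 3 of the falls were at least 2-fold. NES, a filament of progenitors, rose by 0.87, and OTX2, a homeobox factor of the anterior embryo and of epiblast, fell by 1.67. The neuronal cytoskeleton genes TUBB3 and STMN2 fell by 1.50 and 4.13. STMN2 was one of 14 genes at 10 FPKM or more in both day 3 libraries and below 1 FPKM in both of day 7.

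Keratin filaments of epithelia and vimentin, the filament of mesenchyme, both rose. Of 19 tested epithelial genes 10 rose and 1 fell (median 0.58), and the list went from 0.477% and 0.474% to 1.52% and 1.50% of nuclear FPKM. KRT8 stood at 979.8 and 978 FPKM at day 3 and 3824 and 3796 FPKM at day 7. KRT19 stood at 416 and 406 FPKM at day 3 and 2604 and 2638 FPKM at day 7, so these 2 keratin genes hold most of that share at day 7. KRT18, the partner of KRT8, rose by 1.81 (SE 0.10, adjusted p = 2.66e-07). PKP2, a plakophilin of desmosomes and intercalated discs, rose by 3.67 to 114 and 107 FPKM. E-cadherin, CDH1, was the 1 that fell, from 262 and 258 FPKM to 140 and 121 FPKM (-0.99, SE 0.26, adjusted p = 0.0113). That call ended without day 3 replicate 1 (-0.98) or without day 7 replicate 2 (-0.88). EPCAM, an epithelial adhesion molecule, did not pass (-0.14, SE 0.15, adjusted p = 0.486). VIM stood at 196 and 194 FPKM at day 3 and 1059 and 1092 FPKM at day 7 (2.46, SE 0.09, adjusted p = 1.49e-08). N-cadherin, CDH2, overlapped between the days at 245 and 237 FPKM at day 3 and 241 and 227 FPKM at day 7 (-0.04, SE 0.10, adjusted p = 0.775). The ratio of CDH2 to CDH1 went from 0.936 and 0.917 at day 3 to 1.72 and 1.88 at day 7. Of 14 tested mesenchymal and transition genes 4 rose and 5 fell (median -0.08), with 3 of the rises and 3 of the falls at least 2-fold. The shares of all genes tested were 21.1% higher and 22.6% lower. The transcription factors of epithelial-mesenchymal transition SNAI1 and SNAI2 fell by 0.93 and 0.86, and CDH11, a mesenchymal cadherin, fell by 2.78.

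Matrix genes were mostly higher, 22 of 33 tested against 4 lower (median 0.82). COL1A1, the main fibrillar collagen chain, stood at 22.8 and 24.4 FPKM at day 3 and 405 and 385 FPKM at day 7 (4.01, SE 0.16, adjusted p = 2.78e-08). COL2A1, a collagen of cartilage and early heart cushions, rose by 2.97 to 334 and 351 FPKM. FN1, fibronectin, rose by 1.73, and HAPLN1, which links hyaluronan in cardiac jelly, by 2.35. The basement membrane genes NID2 and LAMA1 rose by 3.45 and 1.50. The microfibrillar collagen chains COL6A1 and COL6A2 fell instead, COL6A1 from 792 and 760.5 to 199.9 and 233 FPKM (-1.84). ELN, elastin, and BGN, a small proteoglycan, fell by 2.13 and 2.41. LOX, which crosslinks collagen and elastin and is not among these 33 genes, fell by 3.18. COL3A1 and POSTN were not analysed here.

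Genes of DNA replication mostly fell. Of 41 tested replication and G1/S genes 24 fell and 4 rose (median -0.78). PCNA, the sliding clamp, stood at 59.1 and 60.5 FPKM at day 3 and 23.5 and 19.3 FPKM at day 7 (-1.45, SE 0.13, adjusted p = 7.93e-06). The flap nuclease FEN1 and the clamp loader RFC3 fell by 1.33 and 1.14, and the GINS subunits GINS1 and GINS3 by 1.16 and 1.56. Of 40 mitotic genes 8 rose and 6 fell, near or below the shares of all genes (21.1% and 22.6%), so no change of this list is read from them, with 3 to 6 rises and 2 to 3 falls when any 1 of the 4 libraries was left out. MKI67, a mark of cycling cells, did not pass, at 18.1 and 19.2 FPKM at day 3 and 20.2 and 20.1 FPKM at day 7 (0.11, SE 0.16, adjusted p = 0.617). CDK1 and TOP2A rose by 1.01 and 0.82, and the condensin subunit NCAPH fell by 0.91. The D-type cyclins changed order. CCND2 stood at 91.3 and 90.2 FPKM at day 3 and 48.8 and 47.6 FPKM at day 7 (-0.90). CCND1 stood at 35.7 and 39.0 FPKM at day 3 and 56.4 and 56.9 FPKM at day 7 (0.59). Their ratio went from 2.56 and 2.31 to 0.865 and 0.836, so CCND1 was the higher at day 7. The inhibitors of cyclin-dependent kinases parted too: CDKN1C rose by 3.33 to 122 and 128 FPKM, CDKN1B rose by 1.35, and CDKN1A, a p53 target, fell by 1.16. Of 19 tested p53 targets 16 fell and none rose (median -1.13). Among them PHLDA3, AEN and XPC fell by 1.85, 1.81 and 1.57, and TNFRSF10B, a death receptor, by 1.33. The other 3 did not pass.

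**Figure D4:**
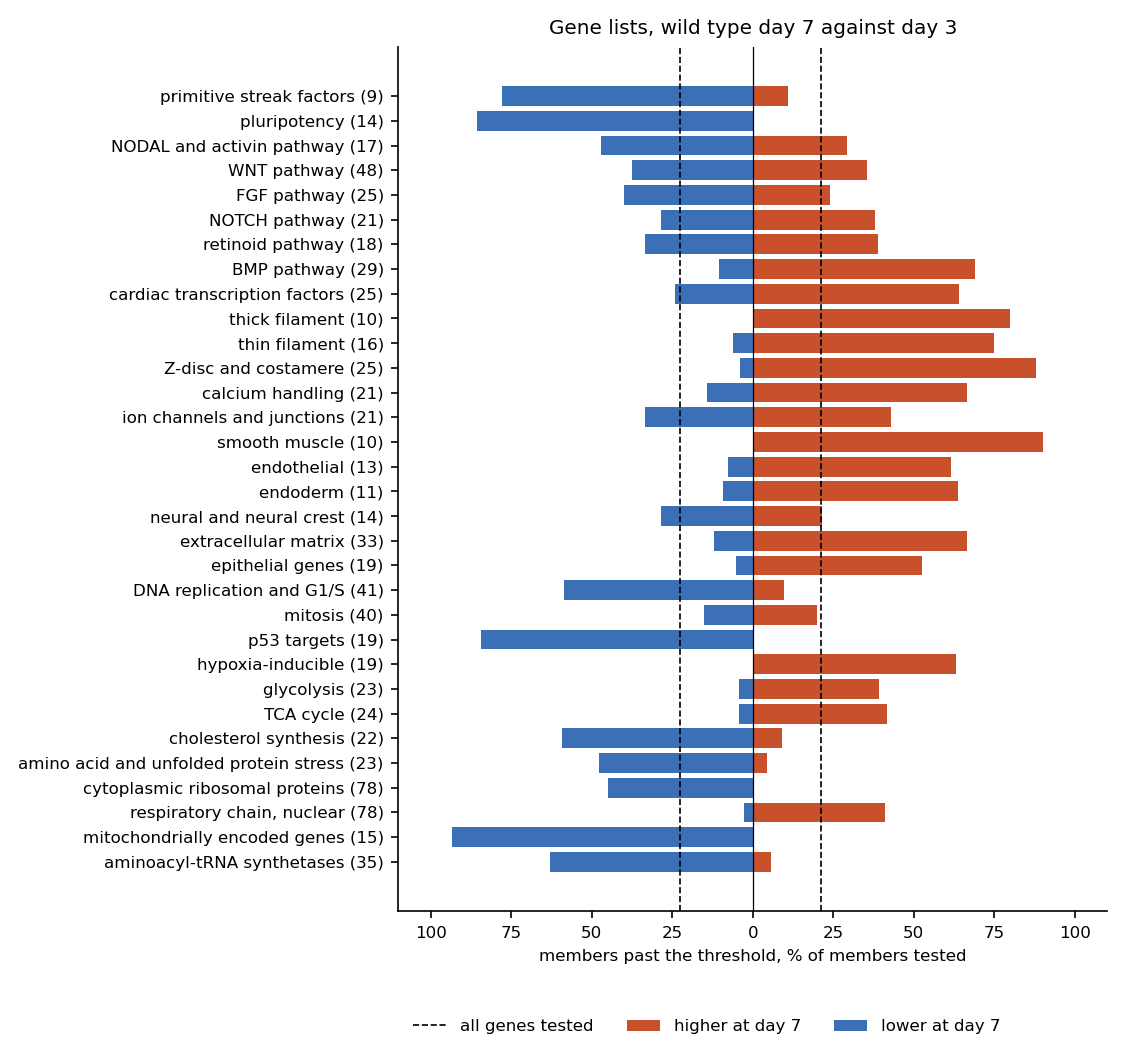
Share of the tested members of 32 gene lists and families that rose (red, to the right) or fell (blue, to the left) from day 3 to day 7, with the number tested in parentheses and dashed lines at the shares of all genes tested, 21.1% higher and 22.6% lower. The muscle lists reach far to the right, streak, pluripotency, p53 and mitochondrially encoded genes far to the left, and mitotic genes stay within the dashed lines on both sides.

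Respiratory chain genes of the nucleus mostly rose where they changed, and those of the mitochondrial genome fell. Of 78 nuclear genes of the respiratory chain 32 rose and 2 fell (median 0.34), with 19 to 25 rises when any 1 of the 4 libraries was left out. The ATP synthase subunit genes ATP5A1 and ATP5G1 rose by 0.99 and 1.51 and NDUFS4 of complex I by 0.92. Of 15 genes of the mitochondrial genome 14 fell (median -1.21). MT-CYB, of complex III, stood at 2288 and 2333 FPKM at day 3 and 543 and 537 FPKM at day 7, and MT-ND1, of complex I, fell by 1.75. With each library scaled to its nuclear genes 14 fell as well (median -1.14). Of 24 genes of the TCA cycle 10 rose and 1 fell, with IDH2, SUCLG1 and MDH1 higher by 1.70, 1.65 and 1.61. PPARGC1A, a coactivator of mitochondrial genes, was below 1 FPKM in both day 3 libraries and stood at 10.1 and 12.2 FPKM at day 7 (3.45, SE 0.20, adjusted p = 3.60e-07). FABP3, the heart fatty acid binding protein, rose by 3.67, while CPT1A and CPT1B, which let fatty acids into mitochondria, fell by 1.13 and 0.90. Of 27 genes of fatty acid uptake and oxidation 13 rose and 4 fell, and 8 rose without day 7 replicate 2.

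The calls among glycolysis genes were nearly all rises. Of 23 tested 9 rose and 1 fell (median 0.27). The transporter SLC2A3 stood at 537 and 533 FPKM at day 3 and 2243 and 2122 FPKM at day 7 (2.03, SE 0.10, adjusted p = 1.52e-07). The kinases HK1 and PFKP rose by 1.36 and 1.54, and HK1 over HK2 went from 1.62 and 1.55 to 2.82 and 2.92. GAPDH (-0.04) and LDHA (0.08) did not pass. TXNIP, an arrestin-like protein that restrains glucose uptake, stood at 4.61 and 4.17 FPKM at day 3 and 457 and 444 FPKM at day 7, at 43.1 and 43.8 FPKM at day 15, and rose by 6.39 from day 3 to day 7 (SE 0.10, adjusted p = 2.80e-11). Of 19 hypoxia-inducible genes 12 rose and none fell (median 0.96). EPAS1, a hypoxia-inducible factor, rose by 3.08, NDRG1 by 2.78 and MXI1, a MYC antagonist, by 2.76. BNIP3, ADM and PDK1, of the same list, did not pass (-0.09, -0.19 and 0.20).

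More genes fell than rose in lists of lipid, amino acid and protein synthesis, though in some of them most members did not pass. Of 22 genes of cholesterol synthesis and uptake 13 fell and 2 rose (median -0.52). CYP51A1, which demethylates lanosterol, stood at 55.7 and 60.5 FPKM at day 3 and 27.7 and 28.1 FPKM at day 7 (-1.03, SE 0.11, adjusted p = 2.83e-05). SC5D, a sterol desaturase of a late step, was among the rises (1.11). Of 23 tested genes of amino acid and unfolded protein stress 11 fell, 1 rose and 11 did not pass. CHAC1, a glutathione-degrading enzyme under ATF4, fell from 27.4 and 28.1 to 2.54 and 2.34 FPKM (-3.06), and PSAT1, of serine synthesis, fell by 2.23. VLDLR, a lipoprotein receptor, was the member that rose (2.24). Of 35 aminoacyl-tRNA synthetase genes 22 fell and 2 rose (median -0.59), WARS by 1.79 and CARS by 1.62. Of 78 cytoplasmic ribosomal protein genes 35 fell, none rose and 43 did not pass (median -0.35). Their share of nuclear FPKM went from 21.1% and 20.4% to 16.4% and 16.9%. The number of falls was 29 when libraries were scaled to their nuclear genes and 14 to 23 when any 1 of the 4 libraries was left out, 23 without the limma trend and 57 in a fit of these 4 libraries alone. RPL12 fell by 1.07, and the elongation factor EEF1A1, with 7309.6 and 7189 FPKM at day 7, by 0.63.

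Of 25 tested splicing regulators 6 rose and 9 fell (median -0.07), with the share of rises close to that of all genes. RBM20, which directs the splicing of titin, stood at 1.19 and 1.00 FPKM at day 3 and 25.9 and 22.4 FPKM at day 7 (3.58, SE 0.23, adjusted p = 7.59e-07). RBM24, another splicing regulator of sarcomere transcripts, stood at 3.43 and 4.57 FPKM at day 3 and 40.6 and 38.2 FPKM at day 7 (3.02, SE 0.18, adjusted p = 5.07e-07). The SR proteins SRSF3, SRSF2, SRSF7 and SRSF1, which act in most splicing, fell by 2.01, 1.82, 1.30 and 1.24. Of 26 chromatin genes 9 rose and 5 fell (median 0.08), against 21.1% and 22.6% of all genes, so the share of falls was near that of all genes. The BAF ATPase SMARCA2 and the Polycomb protein CBX7 rose by 2.58 and 2.03, and the deacetylases went apart, with HDAC5 higher by 1.81 and HDAC1 lower by 1.20. DNMT3A over DNMT3B went from 0.474 and 0.435 to 1.56 and 1.68, and DNMT3A itself did not pass (-0.19, SE 0.13, adjusted p = 0.266).

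Several imprinted growth genes rose many-fold. DLK1, a secreted NOTCH-like protein of fetal tissue, stood at 8.73 and 8.84 FPKM at day 3 and 435 and 466 FPKM at day 7 and at 14.0 and 12.2 FPKM at day 15 (5.53 from day 3 to 7, SE 0.13, adjusted p = 9.52e-10). H19, a noncoding RNA, stood at 14.3 and 15.4 FPKM at day 3 and 355 and 355 FPKM at day 7 (4.49), and its neighbour IGF2, a fetal growth factor, rose by 2.78. PEG10 rose by 2.36. IGF2R, which removes IGF2, fell by 1.23 and PHLDA2, a growth-restraining gene, by 2.30. Of 19 imprinted genes tested 8 rose and 3 fell (median 0.33).

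Some of the largest changes were in genes of no heart list. TGFB2, a ligand that drives cushion formation and matrix in the heart, stood at 1.55 and 1.97 FPKM at day 3 and 272 and 235 FPKM at day 7 (6.53, SE 0.34, adjusted p = 1.73e-07). CCDC80, a secreted matrix-binding protein, stood at 0.496 and 2.23 FPKM at day 3 and 211 and 205 FPKM at day 7 (6.57, SE 0.31, adjusted p = 7.50e-08), with a day 3 spread that did not reach day 7. Among the 15 largest falls, CHGA, chromogranin A of secretory granules, went from 47.3 and 42.6 to 0.291 and 0.634 FPKM (-4.98, SE 0.21, adjusted p = 3.42e-08). SYP, synaptophysin of synaptic vesicles, went from 47.9 and 42.6 to 0.747 and 0.541 FPKM (-4.81). SHISA6, a partner of glutamate receptors, fell by 4.46, and LZTS1, a leucine zipper protein, by 5.05. All 4 were expressed in both day 3 libraries and stood below 1 FPKM in both of day 7.

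The wild-type change was set against that of the libraries labelled knockout over the same days. The 2 changes differed for 3285 of 16295 genes (20.2%), with the wild-type change the higher for 1450 (8.9%) and the lower for 1835 (11.3%). The count was 1930 to 2558 when any 1 of the 8 libraries was left out, with the lowest count without wild-type day 7 replicate 2. Of 17 stage genes, 8 differed. ACTN2 stood at 2.89 and 0.688 FPKM at day 3 and 15.2 and 12.9 FPKM at day 7 in the libraries labelled knockout, and its wild-type change was the higher by 3.95 (SE 0.46, adjusted p = 3.92e-04). MYOCD stood at 0.310 and 0.984 and then 27.2 and 22.7 FPKM there, a difference of 1.71 (SE 0.28, adjusted p = 0.0022). HAND1 stood at 20.4 and 24.1 and then 23.8 and 21.6 FPKM there, with both days overlapping, a difference of 1.45 (SE 0.18, adjusted p = 5.56e-04). TBX5 stood at 4.72 and 4.29 FPKM at day 7 in those libraries, and its change did not differ past the threshold, by 0.06 (SE 0.29, adjusted p = 0.899). Nor did those of MIXL1 and POU5F1, at -0.10 (SE 0.31) and -0.40 (SE 0.28), though POU5F1 passed in a fit of the 8 compared libraries alone (adjusted p = 0.041). In the libraries labelled knockout mitochondrially encoded transcripts took 18.8% and 17.4% of summed FPKM at day 3 and 20.2% and 18.5% at day 7, against the fall in the wild type given above, and the part of this in the differences was not tested. TCF3 mRNA stood at 146 and 148 FPKM at day 3 and 179.9 and 172 FPKM at day 7 in those libraries. These values lay below both wild-type libraries at day 3 and above both at day 7, so the level of TCF3 does not check the label.

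**Figure D5:**
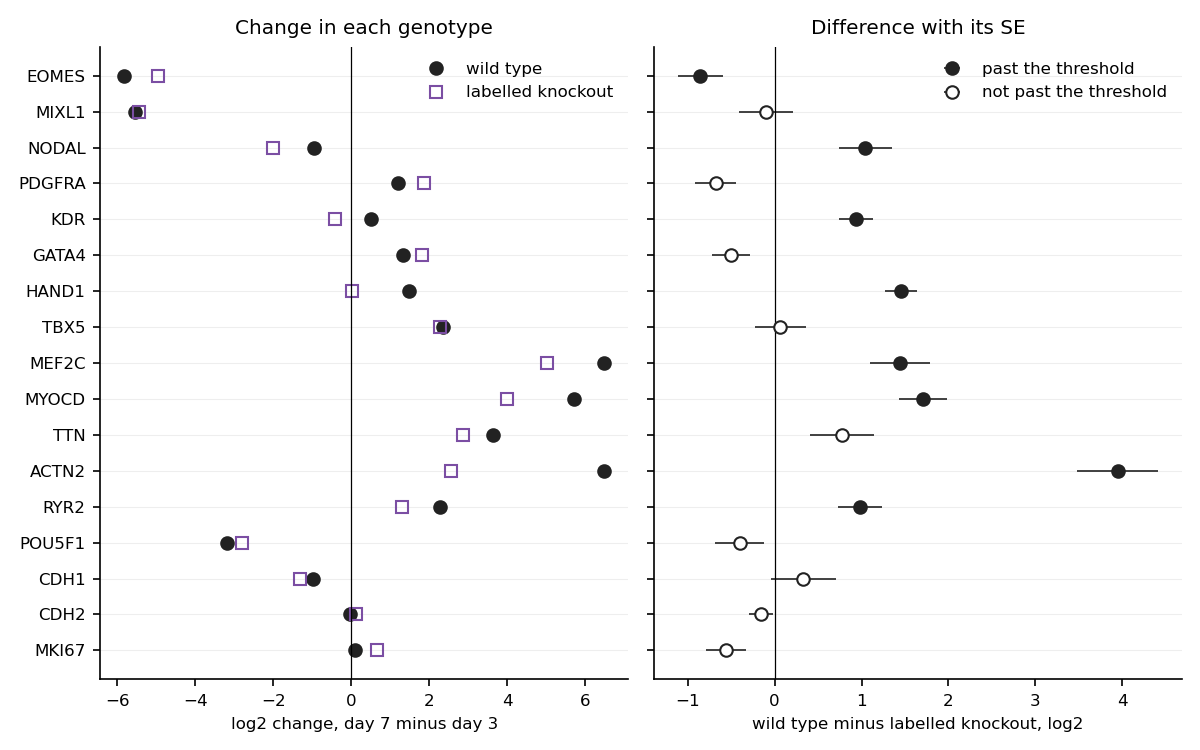
Left, log2 change from day 3 to day 7 of 17 stage genes in the wild type (filled circles) and in the libraries labelled knockout (open squares). Right, the difference of the 2 changes with its SE (n = 2 libraries for each genotype and day), filled where the adjusted p was under 0.05, with ACTN2 farthest from 0 at 3.95.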

How the data were processed

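Per the labels, 1 ug of Trizol-extracted total RNA from each sample went into Illumina libraries read on a HiSeq X10. The submitters' processing notes name BWA and hg38 (GRCh38). The program that counted reads, its annotation and whether it used strand: not given in the sources used here. Overlapping, antisense and near-identical genes (MYH6 and MYH7, the actins, ribosomal pseudogenes) may therefore share reads. The deposited values of the 12 libraries name no unit, and they were taken as FPKM from their scale and library sums. Of low values in genes with a single transcript 46.9% to 54.3% lay within 0.1 of a whole number of reads in the 4 libraries compared, so no counts were rebuilt, the depth is unknown and no counting interval is given.

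From the deposited FPKM, log2(FPKM + 1) was computed for the 16295 genes at 1 or more in at least 2 libraries. A model of 6 group means over 12 libraries, with 6 residual degrees of freedom, was fitted with limma 3.58.1 (trend, R 4.3.3). P-values were adjusted by Benjamini and Hochberg, with a threshold of 0.05, and the fit was tested on simulated data. No sample was dropped or imputed. Symbols matched GENCODE 29 (GRCh38) for 15039 genes (88.0%). The joined table of the 12 libraries holds 22 symbols turned into dates and 18 rows that repeat a symbol. Promoters come from the RefSeq table of GRCh38.p14, in which all 6 genes shown matched.

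The members and lists were chosen with earlier results of these data known. The 42 gene lists hold 908 genes, 785 of them in the table. The other 123 are not analysed here. The text names core genes of the lists, up to 5 members of a list or family in each direction with the smallest adjusted p and a mean of 5 FPKM or more in the higher group, the 15 largest rises and falls, and members that did not pass. Alternatives were other scalings, filters, pseudocounts and fits, and leaving out each library.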

Additional observations from a re-analysis of the deposited data

Results flagged for a closer look

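The wild-type change from day 3 to day 7 differed from that of the libraries labelled knockout, by limma's test of the difference itself (n = 2 libraries for each genotype and day), for 8 of 17 stage genes. By the same test 3285 of all 16295 genes tested (20.2%) differed. The wild-type change was the higher for ACTN2, by 3.95, for MYOCD, by 1.71, for HAND1, by 1.45, for MEF2C, by 1.44, for NODAL, by 1.04, for RYR2, by 0.98, and for KDR, by 0.94. For EOMES it was the lower, with a difference of -0.85. KDR, a receptor of cardiac mesoderm and endothelium, stood at 50.4 and 48.8 FPKM at day 3 and 74.8 and 68.1 FPKM at day 7 in the wild type and at 71.4 and 58.0 and then 51.9 and 44.0 FPKM in the libraries labelled knockout. Its own wild-type rise (0.52, SE 0.14, adjusted p = 0.0114) was lost without day 3 replicate 2 (0.49, adjusted p = 0.0638) and without day 7 replicate 1 (0.45, adjusted p = 0.0847). NODAL ended at 0.360 and 0.575 FPKM at day 7 in those libraries, below both wild-type libraries of that day.

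The differences of ACTN2, MYOCD, HAND1 and KDR passed in every alternative run. That of EOMES was lost with scaling to nuclear genes (-0.79, adjusted p = 0.0581), with a pseudocount of 0.1 (-0.17, adjusted p = 0.816) and without any 1 of 7 of the 8 libraries. That of NODAL was lost without any 1 of 7 of them. MEF2C was lost without wild-type day 3 replicate 2 or day 7 replicate 1, or without labelled knockout day 3 replicate 1 or day 7 replicate 2. RYR2 was lost with a pseudocount of 0.1 (1.29, adjusted p = 0.0615) and without any 1 of 5 libraries. Other differences passed in some alternatives only. PDGFRA (-0.68, adjusted p = 0.0645) passed with scaling to nuclear genes (adjusted p = 0.0363), in a fit of the 8 libraries alone (0.0399) and with the replicate block (0.0324). POU5F1 passed in the fit of the 8 libraries alone (adjusted p = 0.041). TTN (1.15, adjusted p = 0.0488) and MKI67 (-0.77, adjusted p = 0.0467) passed without labelled knockout day 3 replicate 1.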

How the results depend on the processing

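Counts of genes that rose (3442) or fell (3686) stayed within 1.5 times in every alternative, from 2565 to 3964 rises and from 2527 to 4343 falls. Leaving out 1 of the 4 libraries gave the lowest values, 2565 to 2643 rises and 2527 to 2673 falls. Scaling to nuclear genes gave 3724 rises and 3262 falls, 53.3% of calls higher against 48.3%. The count of genes whose change differed between the genotypes (3285) was 1930 to 2558 when any 1 of the 8 libraries was left out (1973 and 2068 without wild-type day 3 replicates 1 and 2, 1947 and 1930 without day 7 replicates 1 and 2). Those fits hold fewer libraries, and the lone sample of a group is assumed to vary like the others. It was 3998 in a fit of the 8 compared libraries alone. Of 693 called genes among 949 named genes and list members tested, the call of 557 held in all alternatives, and no call reversed its direction. Replicate numbers are shared between groups but are not said to pair samples, and deviations of same-numbered samples correlated at 0.0167 in the wild type and 0.1526 in the libraries labelled knockout. With the replicate number as a block, 3444 genes rose, 3711 fell and 3316 differed between the genotypes. The depth is unknown, so values under about 1 FPKM carry an error that cannot be given, and n = 2 limits the precision of each change.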

Other observations

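Genes that guide cells and axons held both directions. Of 19 tested ephrins and EPH receptors 8 rose and 2 fell. The membrane-bound ligands EFNA1, EFNA3 and EFNB3 rose by 5.15, 1.82 and 1.29, and the receptors EPHA1 and EPHA2 fell by 1.58 and 1.42. Of 31 semaphorins, plexins and neuropilins 11 rose and 7 fell. Among all genes tested 21.1% rose and 22.6% fell, so the share of falls in this family is that of all genes. SEMA3C, a secreted semaphorin of the outflow tract, stood at 0.825 and 1.14 FPKM at day 3 and 6.11 and 4.52 FPKM at day 7 (1.66, SE 0.19, adjusted p = 4.89e-05). NRP1 and NRP2, its coreceptors, rose by 2.04 and 2.57. The repulsive ligand SLIT3 and the receptor ROBO2 rose by 2.75 and 3.03. They were the 2 rises among 6 tested slits and ROBO receptors (median 0.09), of which ROBO1 fell (-0.68) and 3 did not pass.

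Of 54 tested protocadherins 25 fell and 4 rose (median -0.47), among them clustered genes whose reads may be shared. PCDH10 fell by 1.46, and PCDH17 and PCDH7 rose by 3.31 and 1.57. Among immediate early genes FOS and EGR1 fell by 1.46 and 1.53, while JUN and JUNB rose by 0.84 and 0.87. Of 259 antisense genes placed by symbol 21.2% rose and 11.2% fell, and of 348 processed pseudogenes 4.02% rose and 13.5% fell, against 22.8% and 24.6% of 13316 protein-coding genes. Strand use is not known, so antisense values may hold reads of the opposite gene.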
